A study of Mus musculus with 32 samples.

Results

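Complex I of the respiratory chain was followed in mouse hearts through every array probe whose gene name begins with Nduf. The prefix gathered 50 probes of 42 genes out of 27532 genes tested. Of the 42 genes, 36 encode subunits of complex I, 4 encode assembly factors (Ndufaf1, Ndufaf2, Ndufaf3 and Ndufaf4), and 2 (Ndufa4 and Ndufa4l2) keep the prefix although their proteins are no longer counted as complex I subunits. All 50 probes were well above background on all 32 arrays, so no member was lost to a filter on dim probes.

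Complex I, NADH:ubiquinone oxidoreductase, sits in the inner mitochondrial membrane, takes electrons from NADH and passes them along a chain of iron-sulfur clusters to ubiquinone, and it pumps protons while doing so. Core subunits in the matrix arm carry the flavin and the clusters, core subunits made from mitochondrial DNA form the proton pumps of the membrane arm, and accessory subunits surround both arms and hold them together. Heart muscle is densely packed with mitochondria, and its contraction depends on the ATP that this chain drives.

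The hearts came from C57BL/6 mice in a model of social stress. Stressed mice were held in a mesh box inside the cage of an aggressor for 6 hours a day, with brief attacks, over 5 or 10 days (T5, T10), after which a rest of 1, 10 or 42 days followed (R1, R10, R42). Controls were held in mesh boxes in a large cage with no aggressor. The groups were T5R1, T5R10, T10R1 and T10R42, each with 4 stressed mice and 4 controls of its own, and RNA of each heart was hybridised to an array of its own. The labels used here give no age or sex, and no allele or drug. Each condition filled 1 of 4 slides, so every comparison of stressed with control lay within a slide, but controls lay in the first 2 array columns and stressed mice in the others, so array column and stress cannot be told apart.

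Most Nduf probes lie in a single exon, whereas 6 of the 50 are split by an intron in the genome and so match spliced messenger RNA only. Of these 6, the probes of Ndufa10 and Ndufb6 carry results described below. Ndufa10 is one of the genes whose stress effect differed between conditions, and the Ndufb6 probe disagreed with another probe of its gene. Each is printed 5′ to 3′, with the outer limits of its match on mm9 as the array design gives them, both on the minus strand.
Ndufa10 (chr1:94361039-94363996, minus strand): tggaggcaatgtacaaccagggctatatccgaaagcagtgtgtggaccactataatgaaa
Ndufb6 (chr4:40219858-40224715, minus strand): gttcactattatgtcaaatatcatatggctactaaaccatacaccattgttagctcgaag

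A level below is the log2 processed signal minus the array's own 75th percentile signal, so 7 means 7 log2 units above that percentile. A change is the stressed mean minus the control mean on this log2 scale, given with its standard error. A gene was called when limma's Benjamini-Hochberg adjusted p over all 27532 genes lay below 0.05, and rose and fell are used of called genes only. The 75th percentile signal ranged from 237 to 499 over the arrays, replicate arrays had correlations of 0.9821 to 0.9943, and all 12 cardiomyocyte markers checked (such as Myh6, Tnnt2 and Ryr2) were measured. The members are bright probes, with 37 of the 42 genes in the brightest 10% of all genes tested. Their changes were therefore also computed under quantile scaling, which gives every array the same distribution of signals. In RNA from whole tissue, fewer cells of a type and less RNA per cell cannot be told apart.

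In T5R1, with 5 days of stress and the heart taken 1 day later, 16 of the 42 Nduf genes passed the test. Of these, 15 fell (35.7% of the 42), against 8.43% of all genes tested, and 1 rose (Ndufab1), against 5.3% of all genes. All 16 encode subunits of complex I, and none of the 4 assembly factors passed the test. The fall was modest. The largest was that of Ndufs1, to 72.9% of the control level, and the median change over the 42 genes was -0.23 where that over all genes was -0.12. Measured changes were below 0 for 38 of the 42. Under quantile scaling 3 genes fell (7.14%, against 4.01% of all genes), 1 rose (against 6.97% of all genes), and the median was -0.06 where that over all genes was -0.03. The 4 calls shared by both scalings were Ndufs1, Ndufa3 and Ndufa1, which fell, and Ndufab1, which rose.

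**Figure D1:**
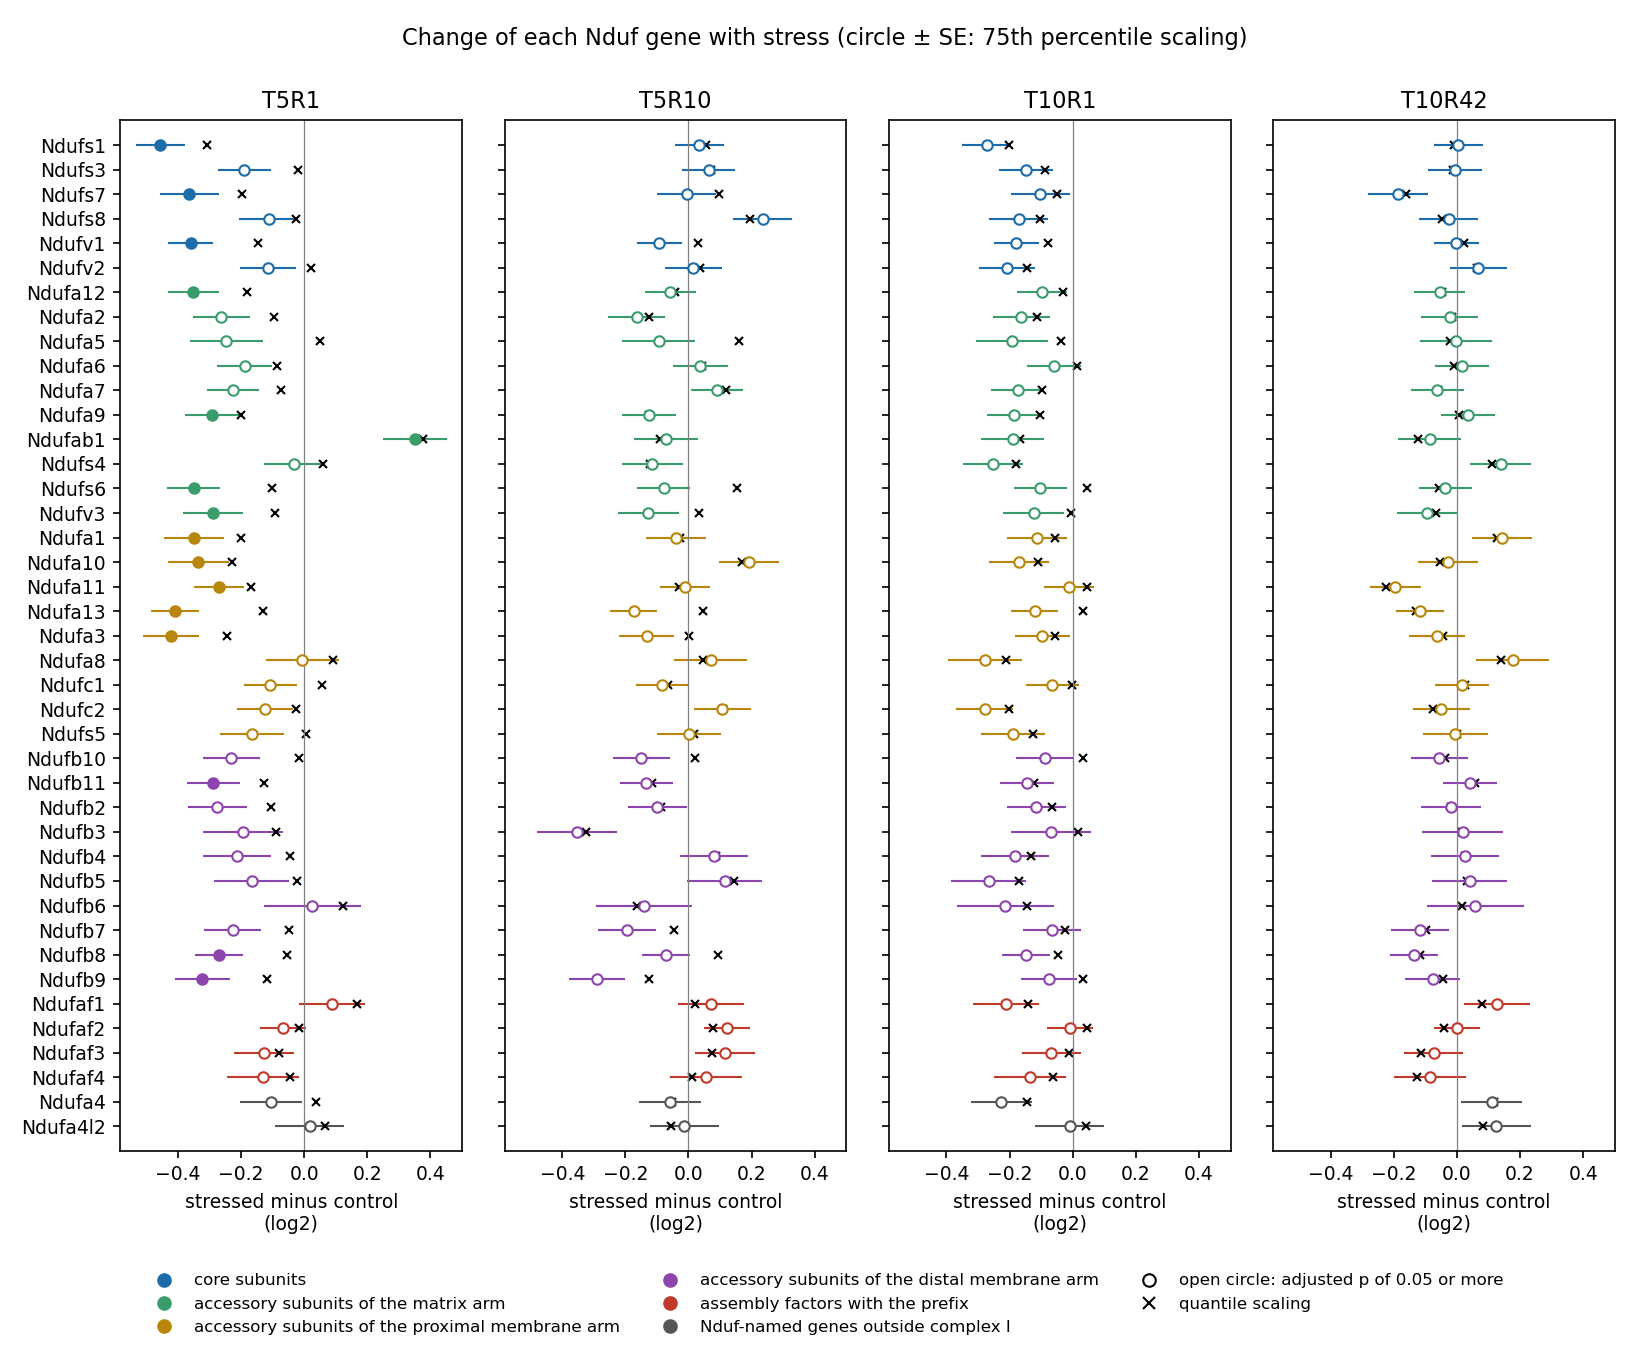
Change of 41 Nduf genes in the 4 conditions, as the log2 difference of stressed and control means (stressed minus control), genes being ordered by role down the page. Circles with bars are the change and its standard error under 75th percentile scaling, filled where the adjusted p was below 0.05, and crosses are the change under quantile scaling. In T5R1 15 circles left of 0 and 1 right of it are filled, and no circle is filled in the other conditions.

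The 7 core subunits made from nuclear genes were all measured lower in T5R1, and 3 of them fell. Ndufs1, the largest core subunit and the carrier of several iron-sulfur clusters, had levels of 6.71, 6.89, 6.82 and 6.99 in T5R1 stressed hearts, against 7.31, 7.33, 7.37 and 7.23 in T5R1 control hearts. Every stressed heart lay below every control. The change was -0.46 ± 0.08 (adjusted p = 0.000304), and under quantile scaling -0.31 (adjusted p = 0.00792). Ndufv1, which binds the flavin that takes electrons from NADH, had levels of 7.79, 8.02, 8.11 and 8.08 in stressed hearts, against 8.36, 8.47, 8.30 and 8.30 in controls. Its groups did not overlap either, and it fell by 0.36 on the log2 scale (adjusted p = 0.00133). Under quantile scaling its change was -0.15 (adjusted p = 0.253). Ndufs7, which carries the cluster nearest to ubiquinone, had levels of 7.58, 7.75, 8.15 and 8.05 in stressed hearts, against 8.25, 8.27, 8.33 and 8.14 in controls. Stressed replicates 1 and 2 lay far below the controls, while stressed replicate 3 lay just above the lowest control, so the groups overlapped. Ndufs7 fell by 0.36 on the log2 scale (adjusted p = 0.0111), but its adjusted p was 0.0687 without stressed replicate 1.

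The other core subunits did not pass the test. Ndufs3, a subunit of the module that meets ubiquinone, changed by -0.19 (adjusted p = 0.134). Ndufs8 and Ndufv2, which both carry iron-sulfur clusters, changed by -0.11 (adjusted p = 0.43) and -0.12 (adjusted p = 0.397).

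Of the 10 accessory subunits of the matrix arm, 4 fell and 1 rose in T5R1. Ndufa12 fell to 78.4% of the control level (change -0.35 ± 0.08, adjusted p = 0.00418), with levels of 7.34, 7.42, 7.65 and 7.64 in stressed hearts, against 7.77, 7.86, 7.96 and 7.86 in controls. All 4 stressed hearts were lower than every control. Ndufs6, which binds zinc, fell to 78.5% (adjusted p = 0.00633), Ndufa9, which holds a nucleotide and braces the junction of the arms, to 81.6% (adjusted p = 0.0233), and Ndufv3, a small subunit beside the flavin site, to 81.8% (adjusted p = 0.0438). Ndufs6 kept its call in 17 of 20 alternatives, as did Ndufa12. Ndufv3 kept it in 6 of 20 and Ndufa9 in 10 of 20, with adjusted p of 0.201 and 0.119 without stressed replicate 1. Ndufa2, an accessory subunit with a thioredoxin fold, stood just outside the threshold at an adjusted p of 0.05001 (change -0.26). Ndufa5, Ndufa6 and Ndufa7 changed by -0.25, -0.19 and -0.23, and Ndufs4, whose loss in mice gives a model of Leigh syndrome, by -0.03, and none of these passed the test.

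Ndufab1 was the 1 member that rose. It encodes the mitochondrial acyl carrier protein, which is both a complex I subunit and the carrier for fatty acid synthesis inside mitochondria. Its levels were 1.10, 1.00, 0.89 and 0.90 in T5R1 stressed hearts, against 0.74, 0.50, 0.69 and 0.56 in controls. Every stressed heart lay above every control. The change was 0.35 ± 0.10 (adjusted p = 0.0209), and 0.38 under quantile scaling (adjusted p = 0.0115). Its probe was the dimmest of the 42 used, with a mean level of 0.90. The call did not hold without stressed replicate 1 (adjusted p = 0.0821), without control replicate 2 (0.0756) or without control replicate 4 (0.0573).

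The proximal part of the membrane arm, next to the matrix arm, had the largest share of members that fell, at 5 of 9, with all 9 measured lower. Whether the shares differed between the parts of the complex was not tested. Under quantile scaling only Ndufa3 and Ndufa1 of these 9 fell. Ndufa3, a small membrane subunit, had levels of 7.65, 7.69, 8.05 and 7.99 in T5R1 stressed hearts, against 8.29, 8.27, 8.28 and 8.23 in controls. The controls differed by less than 0.1 among themselves and all stressed hearts lay below them. Its change was -0.42 ± 0.09 (adjusted p = 0.00202), and -0.24 under quantile scaling (adjusted p = 0.0285). Ndufa13, also known as GRIM-19, had levels of 8.58, 8.67, 8.89 and 8.78 in stressed hearts, against 9.17, 9.22, 9.08 and 9.08 in controls, again without overlap. It fell by 0.41 on the log2 scale (adjusted p = 0.000599). Under quantile scaling its groups overlapped and its change was -0.13 (adjusted p = 0.332).

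The other 3 that fell in the proximal arm were Ndufa1, Ndufa10 and Ndufa11. Ndufa1, an X-linked subunit needed for assembly, had levels of 7.41, 7.56, 7.96 and 7.77 in T5R1 stressed hearts, against 7.99, 8.03, 8.01 and 8.07 in controls. Stressed replicate 3 nearly reached the lowest control, and the fall to 78.4% of the control level (adjusted p = 0.015) was lost without stressed replicate 1 (adjusted p = 0.0865). Ndufa10, whose protein has the fold of a nucleoside kinase, had levels of 5.55, 5.70, 5.58 and 5.76 in stressed hearts, against 6.00, 5.99, 6.04 and 5.90 in controls. The stressed hearts all lay below the controls, and Ndufa10 fell to 79.2% of the control level (adjusted p = 0.0201). Leaving out stressed replicate 1 gave an adjusted p of 0.0738, and leaving out control replicate 3 gave 0.0554. Ndufa11 fell to 82.9% (adjusted p = 0.024), a call kept in 10 of 20 alternatives. Ndufa8, Ndufc1, Ndufc2 and Ndufs5 changed by -0.01 to -0.17 and did not pass the test.

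In the distal part of the membrane arm 3 of 10 accessory subunits fell, and 9 were measured lower. Ndufb9, an accessory subunit of the LYR family, had levels of 8, 8.06, 8.39 and 8.32 in T5R1 stressed hearts, against 8.54, 8.58, 8.50 and 8.46 in controls. Stressed replicates 1 and 2 were lowest, and no stressed heart reached a control. It fell to 80.0% of the control level (adjusted p = 0.0151), Ndufb11, encoded on the X chromosome, to 81.9% (adjusted p = 0.0241), and Ndufb8, which is often used to follow complex I in protein blots, to 82.9% (adjusted p = 0.0186). Without stressed replicate 1 the adjusted p values were 0.0793, 0.134 and 0.104, and without stressed replicate 2 they were 0.0554, 0.0588 and 0.0552. Ndufb2 stood just outside the threshold (change -0.28, adjusted p = 0.0507). Ndufb5 changed by -0.17 ± 0.12 (adjusted p = 0.359), and Ndufb6 was the 1 distal subunit measured above 0 (0.03).

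The assembly factors, which build the complex and leave it, did not follow the subunits past the test. Ndufaf1, which binds Ecsit in the assembly of the membrane arm, had levels of 3.81, 4.04, 4.54 and 4.23 in T5R1 stressed hearts, against 4.14, 4.10, 4.03 and 4.01 in controls. The stressed hearts spread across and beyond the controls on both sides, and the change was 0.09 ± 0.11 (adjusted p = 0.598). Ndufaf2, the chaperone that Ndufa12 replaces, changed by -0.07, Ndufaf3 by -0.13 and Ndufaf4 by -0.13. Ndufa4, now placed in cytochrome c oxidase, had levels of 7.27, 7.37, 7.74 and 7.57 in stressed hearts, against 7.64, 7.62, 7.60 and 7.52 in controls, and its change was -0.11 ± 0.10 (adjusted p = 0.486). Its groups overlapped, and its change was 0.04 under quantile scaling. Ndufa4l2, a relative of Ndufa4 that hypoxia induces, changed by 0.02 ± 0.11 (adjusted p = 0.935). Whether assembly factors and subunits differed in their response was not tested.

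**Figure D2:**
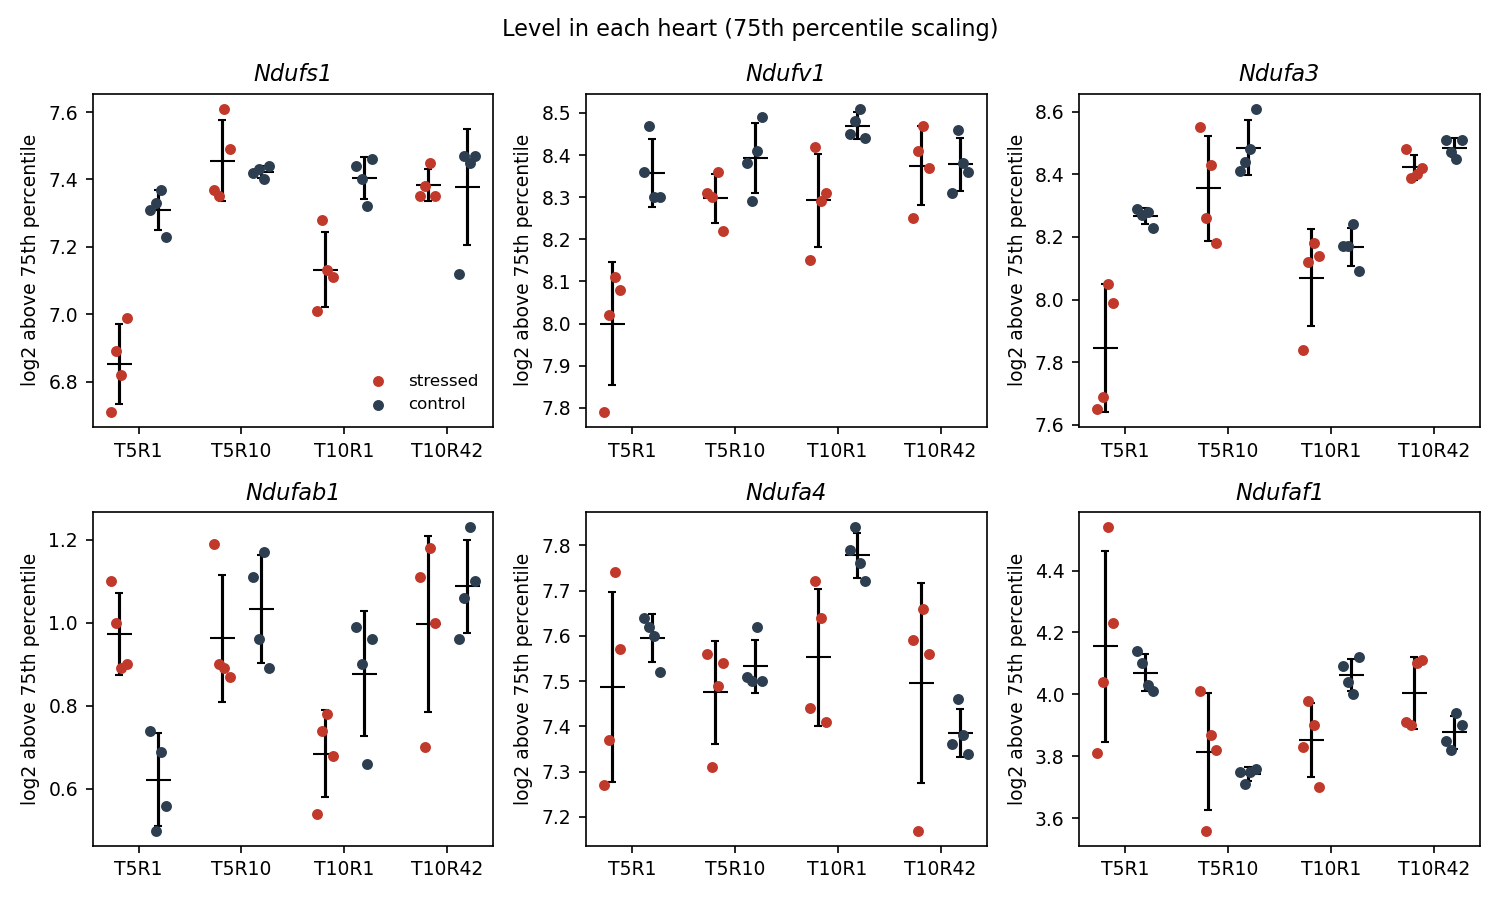
Levels of 6 Nduf genes in each of the 32 hearts, as log2 units above the 75th percentile of the array, with stressed hearts left of control hearts in each condition. Bars are the mean and the standard deviation of 4 hearts. Ndufs1, Ndufv1 and Ndufa3 lie lower in all 4 T5R1 stressed hearts than in the T5R1 controls, Ndufab1 lies higher in all 4, and Ndufa4 and Ndufaf1 overlap there.

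The T5R1 stressed hearts differed among themselves. Stressed replicate 1 lay below every control for 40 of the 42 genes and replicate 2 for 37, against 25 for replicate 4 and 18 for replicate 3. The like counts over all genes are not given, so these counts do not set the members apart from other genes. The mean over the 42 genes, relative to the mean of all 32 arrays, was -0.35, -0.24, 0.03 and -0.05 in the T5R1 stressed hearts, against 0.08, 0.05, 0.07 and 0.00 in the controls. Under quantile scaling these means were -0.18, -0.06, -0.03 and -0.10 in stressed hearts, against 0.01, -0.06, -0.05 and -0.03 in controls. Stressed replicates 1 and 2 were thus the lowest under 75th percentile scaling, while under quantile scaling replicates 1 and 4 were the ones below every control. Without stressed replicate 1 the number of Nduf genes that fell was 6, and without stressed replicate 2 it was 9. The share of all genes that fell in these fits is not given.

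Several array measures moved with these means. The 75th percentile signal, which is subtracted from every level, was 499, 499, 346 and 418 in the T5R1 stressed hearts, against 348, 346, 386 and 362 in the controls, highest in the same 2 stressed hearts. The mean of the 12 cardiomyocyte markers was -0.27, -0.17, 0.00 and 0.01 in stressed hearts, against 0.09, 0.06, 0.08 and 0.03 in controls, and 1 of the 12 fell. That 1 was Tnni3 (change -0.32, adjusted p = 0.0328), which did not fall under quantile scaling (change -0.002, adjusted p = 0.992). Under quantile scaling Tnnc1 was called higher (change 0.22, adjusted p = 0.0345). The means of marker lists given here are under 75th percentile scaling. The mean of 9 fibroblast and matrix markers ran from 0.65 to 1.75 in stressed hearts, against -0.47 to -0.20 in controls, highest in stressed replicates 1 and 2, with 6 of 9 called higher. The mean of 8 macrophage markers ran from 0.13 to 0.78 in stressed hearts, against -0.18 to -0.02 in controls, with 5 of 8 called higher. Of 47 genes of respiratory complexes II to V, 17 fell, and their means were -0.34, -0.20, 0.05 and -0.03 in stressed hearts, against 0.10, 0.10, 0.09 and 0.07 in controls. Beside these counts, 8.43% of all genes fell and 5.3% were called higher in T5R1. Of the 42 Nduf genes 35.7% fell, so the fall was not particular to complex I. Of the further marker lists, 2 of 4 erythroid markers were called higher, 1 of 6 atrial markers lower, 1 of 6 skeletal muscle markers higher and 2 lower, and none of 7 endothelial or 5 adipocyte markers was called. The adipocyte mean was -0.47, 0.48, -2.05 and 0.42 in stressed hearts, against 0.24 to 0.87 in controls. For erythroid markers it was 0.4, 0.73, 2.6 and 0.56, against -0.63 to 0.04. For atrial markers it was -0.96, -0.11, -1.2 and -0.69, against -0.19 to 0.44. These lists were furthest from the controls in stressed replicate 3, whose Nduf mean was the highest of the stressed hearts. The part of these measures in the Nduf result was not tested.

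**Figure D3:**
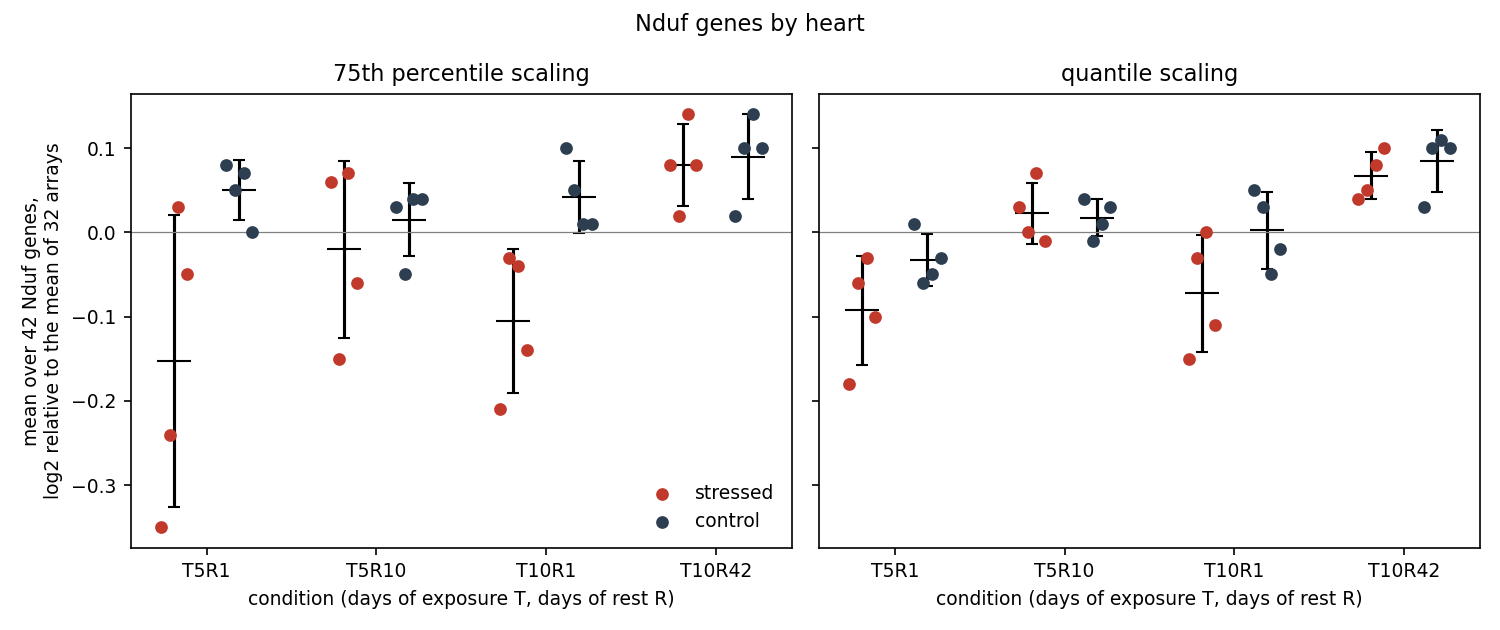
Mean over the 42 Nduf genes in each heart, relative to the mean of all 32 arrays on the log2 scale, under 75th percentile scaling (left) and quantile scaling (right), with stressed hearts left of controls and bars for the mean and standard deviation of 4 hearts. T5R1 stressed replicates 1 and 2 lie lowest on the left at -0.35 and -0.24, and the T10R1 stressed hearts run from -0.21 to -0.03.

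The members were also set beside the brightest 10% of all genes, whose levels ran from 3.98 to 10.37. The median rank of the 42 members by level was 396 of 27532, near the top of that set. The 2 sets are therefore not matched in level. Among the brightest 10% of all genes in T5R1, 17.0% fell and the median change was -0.12, and under quantile scaling 6.03% fell and the median was -0.01. The 37 Nduf genes among them held all 15 that fell (40.5%), with a median of -0.25, and under quantile scaling 3 (8.11%) with a median of -0.09. The 5 dimmer members (Ndufab1, Ndufa4l2, Ndufaf1, Ndufaf2 and Ndufaf3) included no gene that fell and had a median of 0.02. Changing the scaling turned the sign of the change for 7 of the 42 genes in T5R1, none of them called, and 12 of the 16 calls were lost.

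**Figure D4:**
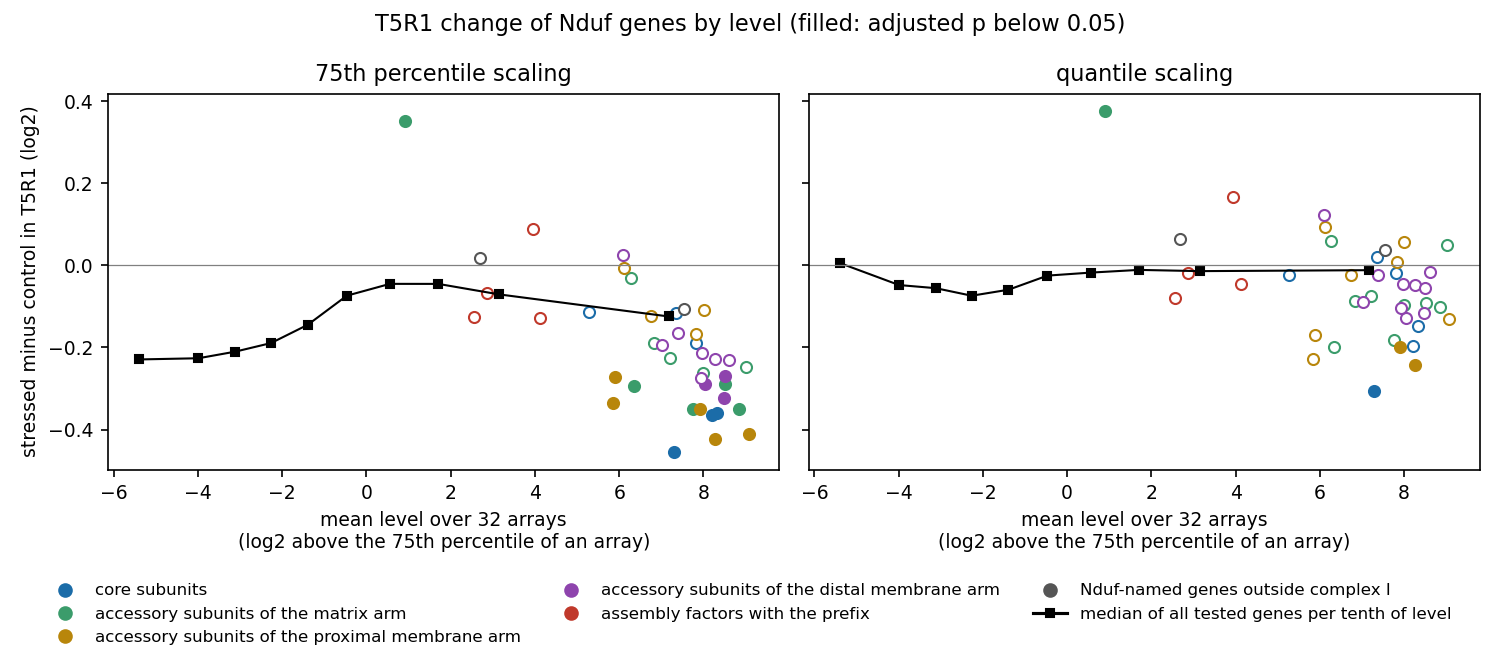
T5R1 change of the same 41 Nduf genes (stressed minus control, log2) against its mean level over 32 arrays, under 75th percentile scaling (left) and quantile scaling (right), coloured by role and filled where the adjusted p was below 0.05. Squares are the median change of all tested genes in each 10% of level. In the brightest 10% that median was -0.12 on the left and -0.01 on the right, while 3 Nduf genes that fell remain filled on the right.

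Promoters of 37 of the 42 members were in the RefSeq table of GRCm38.p6. Ndufa2, Ndufa4l2, Ndufb9 and Ndufs1 were among those not matched. The 250 bases before each start were searched on both strands for letters bound by known regulators of respiratory genes. The NRF1 letters GCATGCGC, which are GCGCATGC on the other strand, were in 4 of the 37 (10.8%), against 2.56% of the promoters of 27025 genes. Of these 4 genes, Ndufa11 fell in T5R1, while Ndufa6, Ndufa8 and Ndufaf4 did not pass the test. Among genes that fell, 1 of the 13 matched held the letters, and among the other members 3 of 24. The GABP letters CCGGAAGT, the ERR letters TCAAGGTCA and the YY1 letters AAGATGGCG were in 0 of the 37, against 3.23%, 0.422% and 0.71% of all genes. With shares this low, a count of 0 in 37 does not set the members apart from all genes. Bases after the start were not searched. The 4 promoters with NRF1 letters are shown as 100 bases on the gene's strand, ending at or before the start, with the letters in capitals (both overlapping copies where they run together). A match of letters does not show binding.
Ndufa11 (chr17:56717656-56717755, plus strand, GRCm38.p6): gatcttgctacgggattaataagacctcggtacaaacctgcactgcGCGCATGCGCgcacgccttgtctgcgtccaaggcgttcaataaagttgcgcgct
Ndufa6 (chr15:82354321-82354420, minus strand, GRCm38.p6): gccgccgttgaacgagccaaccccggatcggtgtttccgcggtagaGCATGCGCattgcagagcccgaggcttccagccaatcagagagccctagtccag
Ndufa8 (chr2:36049339-36049438, minus strand, GRCm38.p6): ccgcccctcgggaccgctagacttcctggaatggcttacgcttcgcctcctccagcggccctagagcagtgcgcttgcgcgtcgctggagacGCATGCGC
Ndufaf4 (chr4:24897924-24898023, plus strand, GRCm38.p6): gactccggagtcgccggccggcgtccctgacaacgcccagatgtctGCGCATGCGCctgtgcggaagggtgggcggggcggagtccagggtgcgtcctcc

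With 10 days of rest after the same exposure (T5R10), none of the 42 Nduf genes passed limma's test in either direction, against 0.0763% of all genes, and none under quantile scaling, against 0.312%. At an unadjusted p below 0.05 there were 5 (11.9%), against 14.0% of all genes. The median change was -0.05, and 0.02 under quantile scaling. Ndufs1 had levels of 7.37, 7.35, 7.61 and 7.49 in T5R10 stressed hearts, against 7.42, 7.43, 7.40 and 7.44 in controls, so the groups overlapped, and the change was 0.03 ± 0.08 (adjusted p = 0.867). Ndufa10 had levels of 5.86, 6.00, 6.12 and 5.82 in stressed hearts, against 5.78, 5.73, 5.76 and 5.76 in controls. All 4 stressed hearts lay above the controls there, with a change of 0.19 ± 0.10 (adjusted p = 0.369).

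The 3 members with the smallest p in T5R10 were Ndufb9, Ndufb3 and Ndufs8. Ndufb9 changed by -0.29 ± 0.09 (adjusted p = 0.147) and Ndufb3, a small distal subunit, by -0.35 ± 0.13 (adjusted p = 0.206). Both rested on stressed replicates 1 and 2, at 6.62 and 6.36 for Ndufb3 where the other stressed hearts had 7.25 and 7.04 and the controls ran from 7.04 to 7.24. These 2 arrays, and control replicate 4, carry the scanner software's mark for evaluation, and without the marked arrays the changes were -0.08 for Ndufb9 and -0.02 for Ndufb3. Ndufs8 changed by 0.24 ± 0.09 (adjusted p = 0.249), and by 0.1 in the authors' value table. Ndufab1, which rose in T5R1, had levels of 1.19, 0.90, 0.89 and 0.87 in T5R10 stressed hearts, against 1.11, 0.96, 1.17 and 0.89 in controls, with a change of -0.07 ± 0.10 (adjusted p = 0.78).

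In T10R1, with 10 days of stress and the heart taken 1 day later, the Nduf genes were measured lower in stressed hearts but no single gene passed the test. All 42 changes were below 0, from -0.28 to -0.01, with a median of -0.15 where that over all genes was 0.00 and that over the brightest 10% of genes was -0.07, and under quantile scaling 33 of 42 were below 0 with a median of -0.07. limma called none, against 1.13% of all genes (and none under quantile scaling, against 0.672%), and at an unadjusted p below 0.05 there were 10, all lower (23.8%, against 6.76% of all genes lower at that p). For 16 of the 42 (38.1%) all 4 stressed hearts lay below all 4 controls, against 5.48% of all genes, and under quantile scaling for 5 (11.9%), against 4.26% of all genes. The corresponding counts in T5R1 were 15 (35.7%), against 15.7% of all genes, and under quantile scaling 9 (21.4%), against 9.81%.

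Ndufs1 had levels of 7.01, 7.28, 7.13 and 7.11 in T10R1 stressed hearts, against 7.44, 7.40, 7.32 and 7.46 in controls. The groups did not overlap, and the change of -0.27 ± 0.08 had an adjusted p of 0.0896. Ndufc2, a proximal membrane subunit, had levels of 6.64, 6.73, 6.62 and 6.42 in stressed hearts, against 6.97, 6.96, 6.83 and 6.76 in controls, again without overlap, and changed by -0.28 ± 0.09 (adjusted p = 0.146). Ndufs4 changed by -0.25 ± 0.10 (adjusted p = 0.238), Ndufb5 by -0.27 ± 0.12 (0.332), Ndufa4 by -0.23 ± 0.10 (0.31), Ndufaf1 by -0.21 ± 0.11 (0.393) and Ndufv1 by -0.18 ± 0.07 (0.264). Ndufab1 had levels of 0.54, 0.74, 0.78 and 0.68 in stressed hearts, against 0.99, 0.90, 0.66 and 0.96 in controls, and its change of -0.19 ± 0.10 (0.432) was opposite in sign to that in T5R1.

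As in T5R1, single hearts and other measures moved with the result in T10R1. The member means were -0.21, -0.03, -0.04 and -0.14 in T10R1 stressed hearts, against 0.10, 0.05, 0.01 and 0.01 in controls, lowest in stressed replicates 1 and 4. Fibroblast and matrix markers averaged 1.17, 0.62, 0.47 and 1.41 in stressed hearts, against -0.35 to -0.25 in controls, also most apart in replicates 1 and 4, with 7 of 9 called higher. Macrophage markers averaged 0.22, 0.13, 0.11 and 0.48 in stressed hearts, against -0.23 to -0.01 in controls, with 1 of 8 called higher. Genes of complexes II to V averaged -0.21, -0.04, -0.03 and -0.07 in stressed hearts, against 0.02 to 0.11 in controls, with 0 of 47 called. Neither set of means overlapped between the groups. Cardiomyocyte markers averaged -0.22, -0.07, -0.17 and -0.16 in stressed hearts, against -0.11 to 0.03 in controls, with 0 of 12 called, while the 75th percentile signal ran from 366 to 434 in stressed hearts, against 327 to 448 in controls, and so overlapped. Adipocyte markers averaged -1.24, -0.13, 0.05 and -1.83 in stressed hearts, against -0.11 to 1.09 in controls. Erythroid markers averaged 1.98, 0.56, 0.14 and 0.02, against -0.75 to 0.02. Atrial markers averaged 0.24, 0.09, 0.26 and -1.61, against -0.38 to 0.36. Beside the counts called, 1.13% of all genes were called in T10R1 in either direction. The part of these measures in the Nduf values was not tested.

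After 42 days of rest (T10R42), Nduf genes did not differ between the groups past the test. limma called none, against 0.897% of all genes (none under quantile scaling, against 1.36%), 1 had an unadjusted p below 0.05 (2.38%, against 18.8% of all genes), and the median change was -0.01. Ndufs1 had levels of 7.35, 7.38, 7.45 and 7.35 in T10R42 stressed hearts, against 7.12, 7.47, 7.45 and 7.47 in controls. Control replicate 1 lay well below, the other hearts were close together, and the change was 0.00 ± 0.08 (adjusted p = 0.983). The smallest p belonged to Ndufa11 (change -0.19 ± 0.08, adjusted p = 0.183), Ndufs7 (-0.19 ± 0.09, 0.283) and Ndufb8 (-0.13 ± 0.08, 0.344). For 4 genes (Ndufa13, Ndufb8, Ndufb9 and Ndufs7; 9.52%) all stressed hearts lay below all controls, against 7.3% of all genes.

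The stress effects were also set against each other. With the longer rest after 5 days of exposure, the effect was higher (T5R10 minus T5R1) for 2 Nduf genes, against 1.18% of all genes, with a median difference of 0.19 over the 42 where that over all genes was 0.08. The genes were Ndufs1, whose effect differed by 0.49 ± 0.11 (adjusted p = 0.0156), and Ndufa10, whose effect differed by 0.53 ± 0.14 (adjusted p = 0.0358). Both fell in T5R1 and were measured above 0 in T5R10. Under quantile scaling neither passed (0.36 and 0.4, adjusted p = 0.0779 and 0.129), with 0 of 42 called, against 0.41% of all genes. Ndufa10 lost its call in 10 of the 16 fits that left out 1 heart, with an adjusted p from 0.053 to 0.0907 in those, while Ndufs1 kept its call in all 16. Ndufs1 lost it with the replicate number as a block (adjusted p = 0.0561), with these conditions fitted alone (0.0606) and in the authors' deposited table (0.0931).

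With the longer rest after 10 days of exposure (T10R42 minus T10R1), limma called no member, against 4.12% of all genes. At an unadjusted p below 0.05 there were 6 members, all higher. Over all genes 22.9% had such a p in either direction, of which the larger part was lower (13.1% of all genes). The median difference was 0.14 where that over all genes was -0.04, and 0.04 under quantile scaling. With the longer exposure before 1 day of rest (T10R1 minus T5R1), limma again called no member, against 0.592% of all genes. At an unadjusted p below 0.05 there were 6 members, 5 higher and 1 lower. Over all genes 17.8% had such a p in either direction, with 5.46% lower. The median difference was 0.10 where that over all genes was 0.09, and 0.02 under quantile scaling. The smallest p in that last comparison was that of Ndufab1, whose effect differed by -0.54 ± 0.14 (adjusted p = 0.0631). T5R1 enters 2 of these 3 differences, so they are not independent of each other. The differences between conditions also span slides, and T10R1 alone was scanned on the earlier of 2 days.

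A second probe was present for 8 of the 42 genes, and for 6 of the 8 both probes had the same sign in T5R1. For Ndufb11 both probes were lower (-0.29, adjusted p over all probes = 0.0291, and -0.45, 0.0424), and for Ndufa5 the dimmer probe passed the test over probes (-0.27, 0.0459) while the brighter, which stood for the gene, did not (-0.25, 0.164). Ndufb6 and Ndufv3 disagreed. The Ndufb6 probe printed above read 5.89, 6.16, 6.29 and 6.32 in T5R1 stressed hearts, against 6.07, 6.17, 6.23 and 6.08 in controls, while its other probe read 5.87, 5.94, 6.14 and 6.03 in stressed hearts, against 6.25, 6.26, 6.21 and 6.17 in controls. The groups overlapped on the printed probe (change 0.03) and not on the other (-0.23, adjusted p = 0.0335). For Ndufv3, a gene with long and short splice forms, the bright probe changed by -0.29 (adjusted p over all probes = 0.0506) and the dim one by 0.19 (adjusted p = 0.226). Neither passed the test over probes. The fall of Ndufv3, called in the fit over genes, is that of its bright probe only.

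Other genes that make or govern complex I were followed from lists. Of 12 assembly factors named without the prefix, 2 fell in T5R1, where 8.43% of all genes fell. Ecsit, the partner of Ndufaf1, fell by 0.29 on the log2 scale (adjusted p = 0.0207), with levels of 5.79, 5.83, 6.15 and 6.12 in stressed hearts, against 6.32, 6.24, 6.24 and 6.22 in controls, without overlap. Nubpl, which delivers iron-sulfur clusters to complex I, fell by 0.29 (adjusted p = 0.0242). Under quantile scaling Ecsit and Nubpl also fell, with adjusted p of 0.0372 and 0.0492. In T10R1, where 1.13% of all genes were called in either direction, 1 of the 12 fell. It was Tmem186, a membrane assembly factor (change -0.35, adjusted p = 0.0344), which did not pass under quantile scaling (change -0.33, adjusted p = 0.0557). The genes Ndufaf5, Ndufaf6, Ndufaf7 and Ndufaf8 stand on the array under older names and so fall outside the prefix, and none of the 4 passed the test in any condition.

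The 7 subunits encoded by mitochondrial DNA (ND1 to ND6 and ND4L), which form the proton pumps, did not pass the test in any condition. In T5R1 all 7 were measured lower with a median of -0.24, and under quantile scaling 3 of 7 with a median of 0.03. The 36 nuclear subunits had a median of -0.25 with 34 lower, and under quantile scaling -0.09 with 28 lower. Of 15 regulators of respiratory genes, 3 fell in T5R1, where 8.43% of all genes fell, and none in the other conditions. Ppargc1a, a coactivator that raises mitochondrial gene expression, averaged 4.04 ± 0.19 in stressed hearts and 4.53 ± 0.18 in controls (SD, n = 4 each; limma change -0.50 ± 0.12, adjusted p = 0.0072). Esrrb, an orphan nuclear receptor, averaged 2.67 ± 0.15 in stressed hearts and 3.04 ± 0.08 in controls (limma change -0.38 ± 0.08, adjusted p = 0.0014), and Ppara, the receptor that controls fatty acid oxidation, 3.75 ± 0.10 in stressed hearts and 4.26 ± 0.18 in controls (limma change -0.51 ± 0.14, adjusted p = 0.0142). All 3 fell under quantile scaling too, with adjusted p of 0.0173, 0.00391 and 0.0315. Nrf1, whose letters were sought in the promoters, changed by 0.00 in T5R1, and Esrra, a further receptor of the group, by -0.13, and neither passed the test.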

How the data were processed

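RNA of single hearts was labelled with Cy3 and hybridised to Agilent arrays of 1 colour, 32 in all. Per the file headers, the authors extracted signals with Agilent Feature Extraction 10.7.3.1. The deposited scanner files give the processed signal, the mean signal and the background of each spot as intensity on a linear scale. The deposited files also give flags per spot (outlier, well above background, saturated), each 0 or 1. The value table that the authors deposited is on a log2 scale; it correlated at 0.99951 or more with the log2 mean signal of the same array, and how its values were otherwise made is not given in the sources used here. It served as an alternative only.

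After removal of control spots (3671 of 62976) and outlier spots, repeated spots were averaged by probe and the log2 processed signal had the array's 75th percentile subtracted. A probe was kept if 3 or more arrays of some group of 4 had it well above background and it was missing on at most 4 arrays (38824 of 55681), and the brightest probe stood for each of 27532 genes. Symbols came from the files or, through the accession, from RefSeq. limma 3.58.1 in R 4.3.3 fitted all 8 groups together (24 residual and 2.28 prior degrees of freedom). P-values were adjusted over all genes by Benjamini-Hochberg, with calls below 0.05, and the steps were tested on simulated data. The number of arrays limits the precision.

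The members, role groups, marker lists and pathway lists were chosen with earlier results of these data known. The values of 1 member are not reported here, though it is included in all counts and medians. Genes named in full were, per condition, the 6 called members with the largest fall or rise (or, with no call, the 3 of smallest p), a fixed set of members named throughout, and members called in a difference of effects. Other scalings, background correction, filters, probe rules, fits and samples were tried as alternatives.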

Additional observations from a re-analysis of the deposited data

Results flagged for a closer look

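Within groups of 4 hearts, 5 values stood apart from the other 3 by Dixon's criterion at the 95% level, out of 96 groups checked, where chance gives about 1 in 20 groups. Ndufab1 in T5R10 stressed replicate 1 was 1.19, against 0.87, 0.89 and 0.90 in the other stressed hearts, and that array is among those the scanner software marked for evaluation. The mean over the 42 Nduf genes in T5R10 control replicate 2 was -0.05, against 0.03, 0.04 and 0.04. Ndufa4 in T5R10 control replicate 3 was 7.62, against 7.50, 7.50 and 7.51. Ndufb5 in T10R42 control replicate 3 was 7.51, against 7.35, 7.36 and 7.38. Ndufs1 in T10R42 control replicate 1 was 7.12, against 7.45, 7.47 and 7.47.

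By limma's test of the difference itself, the stress effect in T5R10 differed from that in T5R1 by 0.49 for Ndufs1 (adjusted p = 0.0156) and by 0.53 for Ndufa10 (adjusted p = 0.0358).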

How the results depend on the processing

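The count of 15 Nduf genes that fell in T5R1 was 3 under quantile scaling, 7 with arrays centred on their median, 2 in the authors' value table and 4 with the T5R1 arrays fitted alone. Of all genes, 8.43% fell in T5R1, and 4.01% under quantile scaling. For the other alternatives in this section the share of all genes called is not given. Their counts therefore do not show whether the members moved apart from all genes. Leaving out 1 heart gave 6 (without stressed replicate 1) to 21 (without stressed replicate 3), and 0 or 1 gene that rose, the 0 without stressed replicate 1, control replicate 2 or control replicate 4. The T5R1 median of -0.23 was -0.06 under quantile scaling and -0.07 in the authors' table, and ran from -0.29 to -0.15 with 1 heart left out. The T10R1 median of -0.15 was -0.07 under quantile scaling, and the T10R42 median of -0.01 was 0.06 with median centring. For T5R10 minus T5R1, 2 calls became 0 under quantile scaling and in the authors' table, 1 with median centring, normexp, no filter, these conditions alone or without the marked arrays, and 1 to 2 with 1 heart left out. For T10R42 minus T10R1, 0 calls became 1 with median centring and 2 with these conditions alone, and 0 to 1 with 1 heart left out (1 without T10R42 stressed replicate 2), and the median of 0.14 was 0.04 under quantile scaling and 0.24 with median centring. For T10R1 minus T5R1, 0 calls became 1 with median centring, probes above background on all arrays, these conditions alone, slide row as a block or without the marked arrays, and 0 to 1 with 1 heart left out (1 without T10R1 control replicate 3). The cause of these moves was not tested. No result changed direction while called. Of 376 repeats of a called single gene, 273 kept the call and 103 lost it.

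With the replicate number as a block, 13 genes fell in T5R1 and 0 were called in T5R10 minus T5R1. Ndufa11, Ndufa9 and Ndufv3 then had adjusted p of 0.0725, 0.0659 and 0.0828. Samples of the same number share only the number: their deviations correlated at -0.266 to 0.214 over 16 pairs, 5 of them over 0.1, and 7 correlated best with their own number.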
